A study of Mus musculus with 6 samples.

Results

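The collagen chain genes were taken as every gene identifier in the count data whose mouse symbol has the form Col, a number, the letter a and a second number. This rule gave 44 genes of 20007 identifiers. They comprised 11 fibrillar chains, 9 network-forming chains, 9 FACIT chains (fibril-associated collagens with interrupted triple helices), 6 collagen VI chains, 2 multiplexins, 4 transmembrane chains and 3 others. Their RNA was compared between chemically induced cells, Sertoli cells and fibroblasts, all from mice of the KM strain, with 2 libraries in each of the 3 groups. CiSCs were mouse embryonic fibroblasts that had been passaged and then treated with unnamed small molecules meant to turn them into Sertoli-like cells. The MSC libraries came from Sertoli cells proper, the supporting cells of the seminiferous tubule, from testes at postnatal day 60, grown on dishes. MEFs were embryonic fibroblasts, and the labels put the embryos behind both MEFs and CiSCs at 13.5 days post coitum, although the culture notes also allow an earlier day. No group of passaged MEFs without compounds was included, so compounds, passage and plating format cannot be told apart. Nothing in the labels ties the 2 libraries within a group to different cultures or animals, so every p-value reflects only how far these libraries spread, which may be technical.

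Collagens are proteins with a triple helix wound from 3 alpha chains, and each chain has its own gene. Fibrillar chains build the rope-like fibrils of connective tissue, network chains such as those of collagen IV build the sheet of the basement membrane, FACIT chains sit on the fibril surface, and collagen VI forms beaded filaments between cells and fibrils. In the testis, Sertoli cells and the surrounding peritubular myoid cells together lay down the basement membrane of the seminiferous tubule, whereas embryonic fibroblasts are known for interstitial fibrils.

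Each library held between 19294671 and 20418587 counts. Levels are given as CPM, counts scaled to the library total multiplied by its TMM factor (trimmed mean of M values). The factors were 1.09 and 1.09 in CiSCs, 0.922 and 0.922 in MSCs, and 0.998 and 0.997 in MEFs. Shares of all counts use the totals without these factors, so CPM and shares differ in scale between groups. One read was worth 0.0468 to 0.0543 CPM. A group with no read allows up to 3 reads over its 2 libraries, or 0.0708 CPM in CiSCs, 0.0806 CPM in MSCs and 0.0769 CPM in MEFs, which covers counting error only. The filter on low counts kept 15272 genes, 41 of the 44 collagen genes among them. The labelled cell types were checked against fixed markers. Summed Sertoli cell markers (14 genes) reached 4864 and 4136 CPM in CiSCs, 6238 and 9210 CPM in MSCs, and 102 and 113 CPM in MEFs. Clu made up most of the sum in both CiSCs (4732 and 4019 CPM) and MSCs (4849.5 and 7526.5 CPM). Gata4, Amh and Dmrt1 had 4, 10 and 3 reads over the CiSC libraries, against 9386, 202 and 415 in MSCs. In MSCs, Fshr and Rhox5 had 8 and 20 reads. Leukocyte markers (18 genes) summed to 61.1 and 78.6 CPM in CiSCs, 1726 and 1653 CPM in MSCs, and 14082 and 23497 CPM in MEFs. All 18 were lower in CiSCs than in MEFs (all genes: 21.3%). Leydig cell markers (8 genes) summed to 3.76 and 2.63 CPM in CiSCs, 1361 and 1394 CPM in MSCs, and 2.45 and 2.44 CPM in MEFs. Fibroblast markers (10 genes) summed to 7198 and 6780 CPM in CiSCs, 3809 and 3390 CPM in MSCs, and 8167 and 7503 CPM in MEFs. Of these 10, 4 were higher and 2 lower in CiSCs than in MEFs. CiSCs were higher than MSCs for 6 and lower for 0, and MSCs were higher than MEFs for 2 and lower for 4. In that order, 60% were called each time, beside 40.9%, 42.8% and 42.5% of all genes. The part of cells other than the labelled type in the collagen results was not tested. In such bulk libraries fewer cells of a type and less RNA per cell cannot be told apart.

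The 2 MEF libraries differed from each other more than those of the other groups did. Of the 41 collagen genes, 6 were over 2-fold apart between the MEF libraries (Col4a6, Col8a1, Col10a1, Col19a1, Col12a1 and Col9a3), against 0 in CiSCs and 0 in MSCs. Over all genes the gap moved with transcript length. Genes with transcripts over 8 kb were higher in the first MEF library by a median of 0.46 on the log2 scale, and those under 2 kb had a median difference of -0.36. Among the collagen genes Spearman's rho between length and this gap was 0.02 (41 genes of the same 2 libraries, a description). These 41 include genes with few MEF reads, such as Col6a5 with 0, Col22a1 with 2 and Col4a3 with 7. The value therefore does not show that chains with many counts lack the length trend.

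Collagen chains took up a larger share of all counts in MSCs than in CiSCs, and a larger share in CiSCs than in MEFs. The 44 genes held 3.87% and 4.10% of the counts in CiSCs, 5.20% and 5.53% in MSCs, and 3.45% and 2.99% in MEFs. The group means were 3.98% ± 0.163 in CiSCs, 5.37% ± 0.229 in MSCs and 3.22% ± 0.329 in MEFs (SD, n = 2 each). The groups did not overlap, but an exact permutation test of 2 against 2 libraries cannot go below p = 0.333, so the share was not tested. The make-up of that share differed as well. Fibrillar chains gave 72.3% and 71.3% of collagen counts in CiSCs, 74.4% and 75.1% in MSCs, and 61.7% and 73.4% in MEFs. Network chains gave 12.4% and 11.9% in CiSCs, 20.4% and 20.3% in MSCs, and 9.67% and 7.67% in MEFs. Collagen VI gave 9.17% and 9.16% in CiSCs, 1.68% and 1.49% in MSCs, and 7.26% and 9.05% in MEFs. MSCs thus held more of their collagen counts in network chains and less in collagen VI than either other group.

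**Figure D1:**
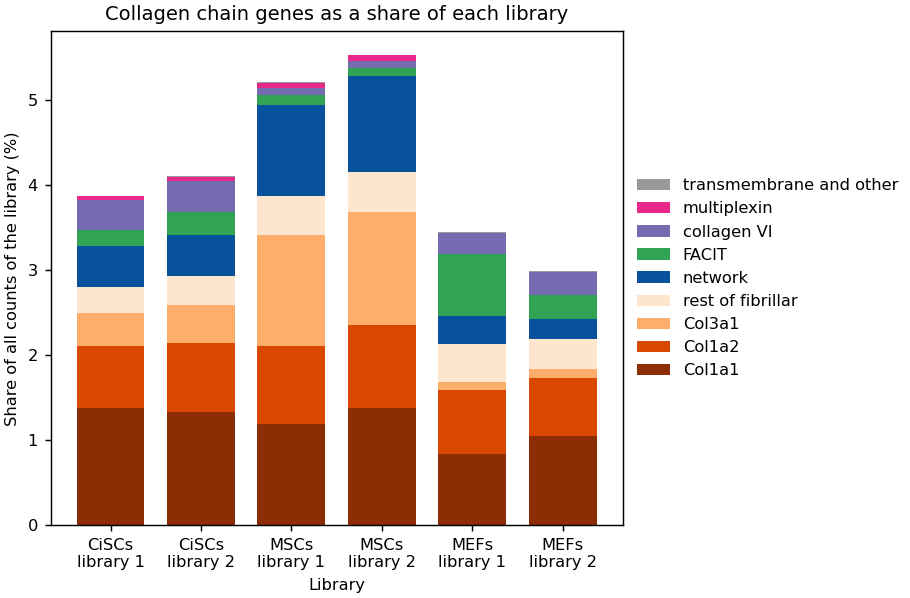
Share of all counts (%, vertical axis) held by collagen chain genes in each of the 6 libraries (horizontal axis), with each bar split by class and with Col1a1, Col1a2 and Col3a1 drawn apart from the rest of the fibrillar chains. The MSC bars reach 5.20% and 5.53%, above the CiSC bars at 3.87% and 4.10% and the MEF bars at 3.45% and 2.99%.

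By the quasi-likelihood test of edgeR, with p-values adjusted over all 15272 genes and calls at an adjusted p under 0.05, collagen genes changed in both directions in each comparison. Between CiSCs and MEFs, 24 of 41 tested collagen genes passed (58.5%), beside 40.9% of all genes. Of these 24, 15 were higher in CiSCs (all genes: 19.6%) and 9 were lower (all genes: 21.3%). The median log2 fold change was 0.39 over the collagen genes and -0.0022 over all genes. Between CiSCs and MSCs, 31 passed (75.6%), beside 42.8% of all genes. Of these, 17 were higher in CiSCs (all genes: 17.7%) and 14 were lower (all genes: 25.1%), with a median of -0.16 beside -0.025 over all genes. Between MSCs and MEFs, 34 passed (82.9%), beside 42.5% of all genes. MSCs were higher for 18 (all genes: 22.5%) and lower for 16 (all genes: 20.0%), with a median of 0.022 beside 0.010 over all genes. The share of collagen genes that passed was above that of all genes each time, but no test of the list was made, and the comparisons share libraries. A further 5 genes passed for CiSCs against MSCs once either MEF library was left out, namely Col5a1, Col9a3, Col10a1, Col12a1 and Col24a1. Calls over all genes also moved when single libraries were left out (given below), so this gain was not read as particular to these 5 genes. Their adjusted p was 0.0604, 0.127, 0.0849, 0.139 and 0.0935 with all libraries. Over the alternatives it lay between 0.00241 and 0.296 for Col5a1, 0.0209 and 0.404 for Col9a3, 0.0170 and 0.250 for Col10a1, 0.00122 and 0.438 for Col12a1, and 0.0225 and 0.394 for Col24a1.

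**Figure D2:**
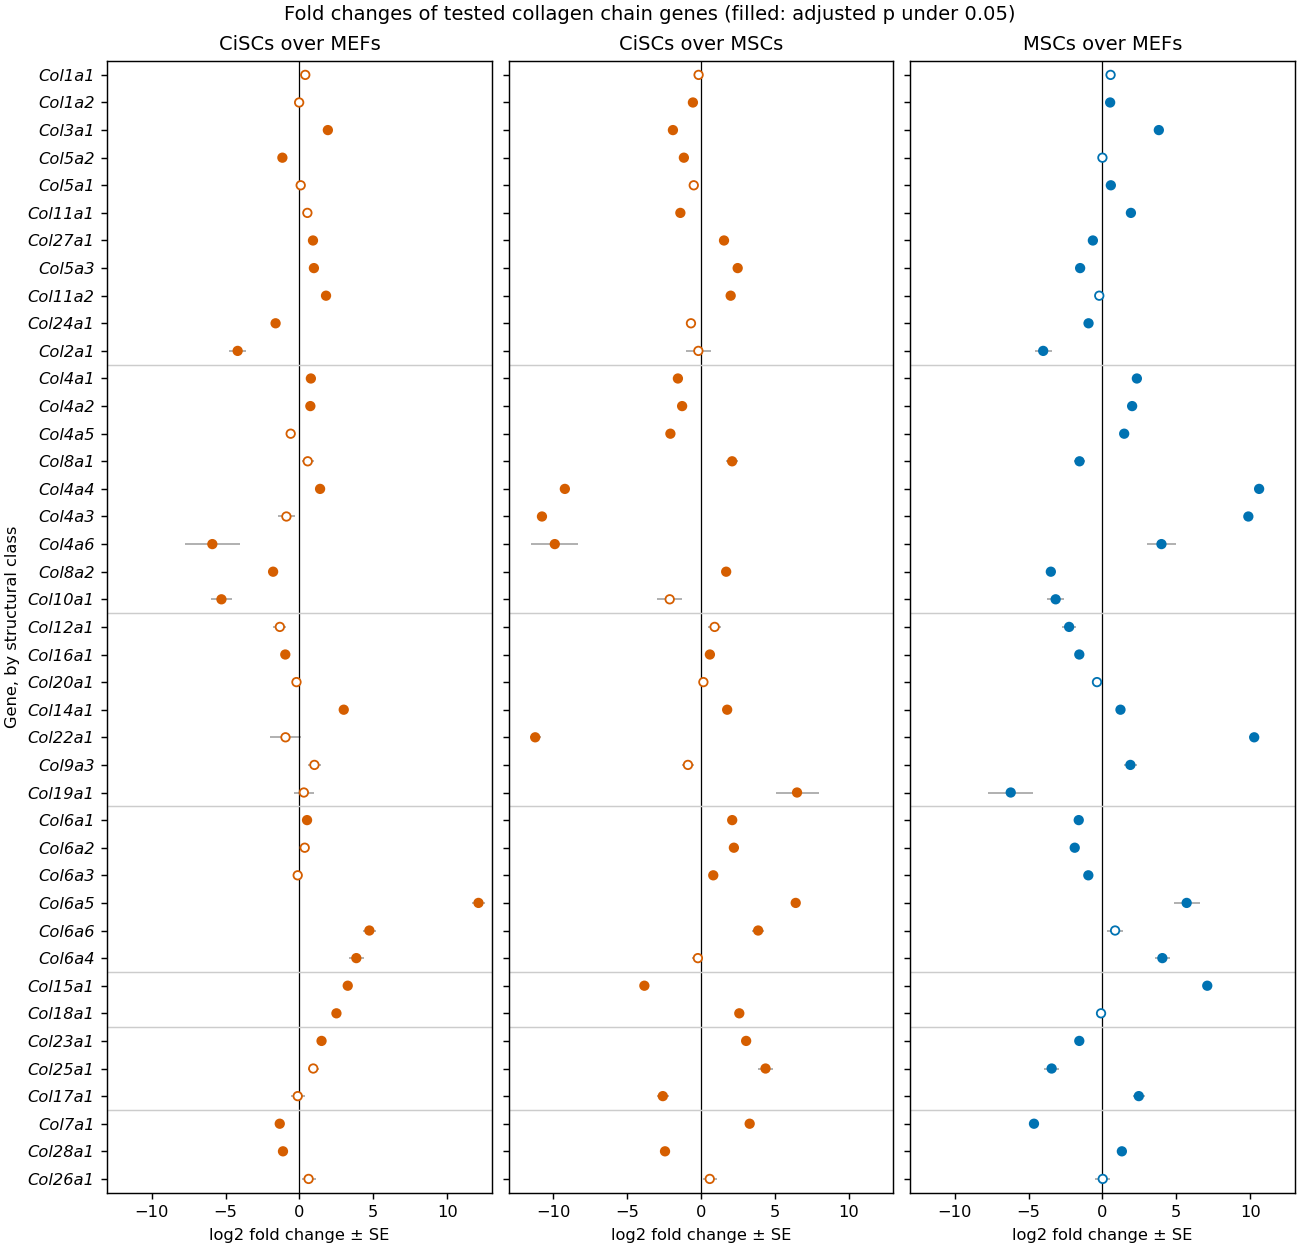
Fold changes of the 41 tested collagen genes on the log2 scale (horizontal axes), with the standard error as a bar, for CiSCs over MEFs, CiSCs over MSCs and MSCs over MEFs. Genes run down the page by structural class, and filled points have an adjusted p under 0.05. The points farthest right for CiSCs over MEFs are collagen VI chains, and those for MSCs over MEFs are Col4a4, Col22a1 and Col4a3.

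The fibrillar chains contain the collagen genes with the highest levels. Col1a1 and Col1a2 encode the 2 kinds of chain in collagen I, the main fibril of most connective tissue. Col1a1 stood at 12682 and 12291 CPM in CiSCs, 12908 and 14956 CPM in MSCs, and 8427 and 10582 CPM in MEFs. It ranked first or second among all genes by CPM in every group, and none of its 3 comparisons passed the test (log2 fold change 0.39 ± 0.19 for CiSCs over MEFs, adjusted p = 0.137; -0.16 ± 0.19 for CiSCs over MSCs, adjusted p = 0.536; 0.55 ± 0.19 for MSCs over MEFs, adjusted p = 0.0531). Over the 14 alternative settings, which include leaving out each library, its adjusted p lay between 0.00702, without the second MEF library, and 0.333 for CiSCs over MEFs. For MSCs over MEFs Col1a1 passed with DESeq2 and without either MEF library (adjusted p 0.00218 to 0.269). Col1a2 had 6696 and 7425 CPM in CiSCs, 10011 and 10559 CPM in MSCs, and 7501 and 6818 CPM in MEFs. CiSCs and MEFs overlapped (-0.02 ± 0.16, adjusted p = 0.933), whereas Col1a2 was lower in CiSCs than in MSCs (-0.54 ± 0.16, adjusted p = 0.0320) and higher in MSCs than in MEFs (0.52 ± 0.16, adjusted p = 0.0370). Both Col1a2 calls were lost without either CiSC library or either MSC library, and with the replicate number as a block. The call for MSCs over MEFs was also lost in the fit of only these 2 groups. Over the alternatives the log2 fold change was -0.62 to -0.46 for CiSCs over MSCs and 0.45 to 0.56 for MSCs over MEFs.

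Collagen III, a chain that forms fibrils with collagen I in soft tissue, differed between the groups by more than either collagen I chain. Its gene Col3a1 had 3591 and 4058 CPM in CiSCs, 14085 and 14351 CPM in MSCs, and 969 and 1049 CPM in MEFs. The groups did not overlap, with CiSCs between MEFs and MSCs. Col3a1 was higher in CiSCs than in MEFs (1.92 ± 0.16, adjusted p = 0.000208), lower in CiSCs than in MSCs (-1.89 ± 0.16, adjusted p = 0.000179) and higher in MSCs than in MEFs (3.82 ± 0.17, adjusted p = 2.29e-05). By mean CPM it was the top gene of all in MSCs, against rank 8 in CiSCs and rank 79 in MEFs. Because transcript lengths differ, levels of different chains were compared per kilobase. Col3a1 led the collagen genes in MSCs at 2555 CPM per kb, above Col1a1 at 2349 CPM per kb. Col3a1 had rank 3 in CiSCs at 687 CPM per kb, where Col1a1 led at 2106 CPM per kb, and rank 7 in MEFs at 181 CPM per kb, where Col1a1 led at 1603 CPM per kb. The count ratio of Col3a1 to Col1a1 was 0.283 and 0.3301 in CiSCs, 1.09 and 0.960 in MSCs, and 0.115 and 0.0991 in MEFs. A stretch of the Col3a1 promoter is shown because this gene changed the most among the 3 chains with the most counts in MSCs. It ends before the first exon (RefSeq, GRCm38.p6, plus strand, chr1:45311288-45311537, 5′ to 3′), and the capitals mark its match to TATAAA, searched on both strands together with CCAAT and GGGCGG.
Col3a1: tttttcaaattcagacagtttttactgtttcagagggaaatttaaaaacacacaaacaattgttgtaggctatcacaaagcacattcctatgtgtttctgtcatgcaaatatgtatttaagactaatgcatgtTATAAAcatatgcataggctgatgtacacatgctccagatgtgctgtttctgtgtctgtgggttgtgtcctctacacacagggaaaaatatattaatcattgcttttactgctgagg
TATAAA occurred in 13.6% of 32851 RefSeq promoter windows of 300 bases (and in 5 of the 38 windows of collagen genes, 13.2%), so this match is a description and not a known site.

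The minor fibrillar chains split. Collagen V and XI chains enter the core of collagen I and II fibrils and set their diameter. Col5a1 had 1512 and 1696 CPM in CiSCs, 2237 and 2253 CPM in MSCs, and 1699 and 1326 CPM in MEFs, and only MSCs over MEFs passed (0.57 ± 0.17, adjusted p = 0.0362). That Col5a1 call was lost without any one CiSC or MSC library, with the replicate block and in the fit of only the 2 groups (log2 fold change 0.40 to 0.73 over the alternatives). Its partner Col5a2 had 960 and 1081 CPM in CiSCs, 2191 and 2349 CPM in MSCs, and 2491 and 2050 CPM in MEFs. Col5a2 was thus lowest in CiSCs, by -1.15 ± 0.16 against MEFs (adjusted p = 0.00209) and by -1.15 ± 0.16 against MSCs (adjusted p = 0.00176), while MSCs and MEFs overlapped. A further chain, Col5a3, went the other way, with 50.3 and 51.5 CPM in CiSCs, 8.66 and 9.50 CPM in MSCs, and 23.5 and 28.2 CPM in MEFs. Col5a3 was higher in CiSCs than in MEFs (0.98 ± 0.14, adjusted p = 0.00249) and than in MSCs (2.49 ± 0.15, adjusted p = 5.55e-05). The ratio of Col5a1 to Col5a2 counts was 1.58 and 1.57 in CiSCs, 1.02 and 0.959 in MSCs, and 0.682 and 0.647 in MEFs, with no overlap between groups.

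Col11a1 had 190 and 221 CPM in CiSCs, 573 and 504 CPM in MSCs, and 187 and 96.5 CPM in MEFs. It was lower in CiSCs than in MSCs (-1.39 ± 0.30, adjusted p = 0.0107) and higher in MSCs than in MEFs (1.93 ± 0.31, adjusted p = 0.00329). Its CiSC to MSC call was lost without any one library of those groups (adjusted p 1.28e-05 to 0.0843 over the alternatives), and its CiSC to MEF difference passed only without the first MEF library (0.54 with all libraries, adjusted p 0.000531 to 0.529). The second collagen XI chain, Col11a2, was highest in CiSCs, with 14.2 and 14.9 CPM in CiSCs, 2.63 and 4.57 CPM in MSCs, and 3.62 and 4.73 CPM in MEFs. Col11a2 rose by 1.80 ± 0.29 over MEFs (adjusted p = 0.00353) and by 2.01 ± 0.29 over MSCs (adjusted p = 0.00199). The genes of collagen XXVII and XXIV, minor fibrillar chains known from developing skeletal tissue, moved in opposite directions in CiSCs. Col27a1 had 48.5 and 45.8 CPM in CiSCs, 14.0 and 18.0 CPM in MSCs, and 23.6 and 26.4 CPM in MEFs (0.92 ± 0.16 for CiSCs over MEFs, adjusted p = 0.00526, and 1.56 ± 0.17 for CiSCs over MSCs, adjusted p = 0.000491). The Col27a1 difference from MEFs missed the threshold without the first CiSC library (adjusted p 0.000152 to 0.0529 over the alternatives). Col24a1 had 3.53 and 4.16 CPM in CiSCs, 6.96 and 5.32 CPM in MSCs, and 14.1 and 9.51 CPM in MEFs, and was lower in CiSCs than in MEFs (-1.61 ± 0.27, adjusted p = 0.00434). Col2a1, the main chain of cartilage fibrils, was near the limit in CiSCs and MSCs, with 4 reads in CiSCs, 4 in MSCs and 71 in MEFs (1.52 and 2.13 CPM), and was lower than in MEFs in both other groups (adjusted p = 0.00184 in CiSCs and 0.00215 in MSCs). Of the 11 fibrillar chains, 4 were higher and 3 lower in CiSCs than in MEFs. CiSCs were higher than MSCs for 3 and lower for 4, and MSCs were higher than MEFs for 4 and lower for 4. In that order, 63.6%, 63.6% and 72.7% of fibrillar chains were called, beside 40.9%, 42.8% and 42.5% of all genes.

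**Figure D3:**
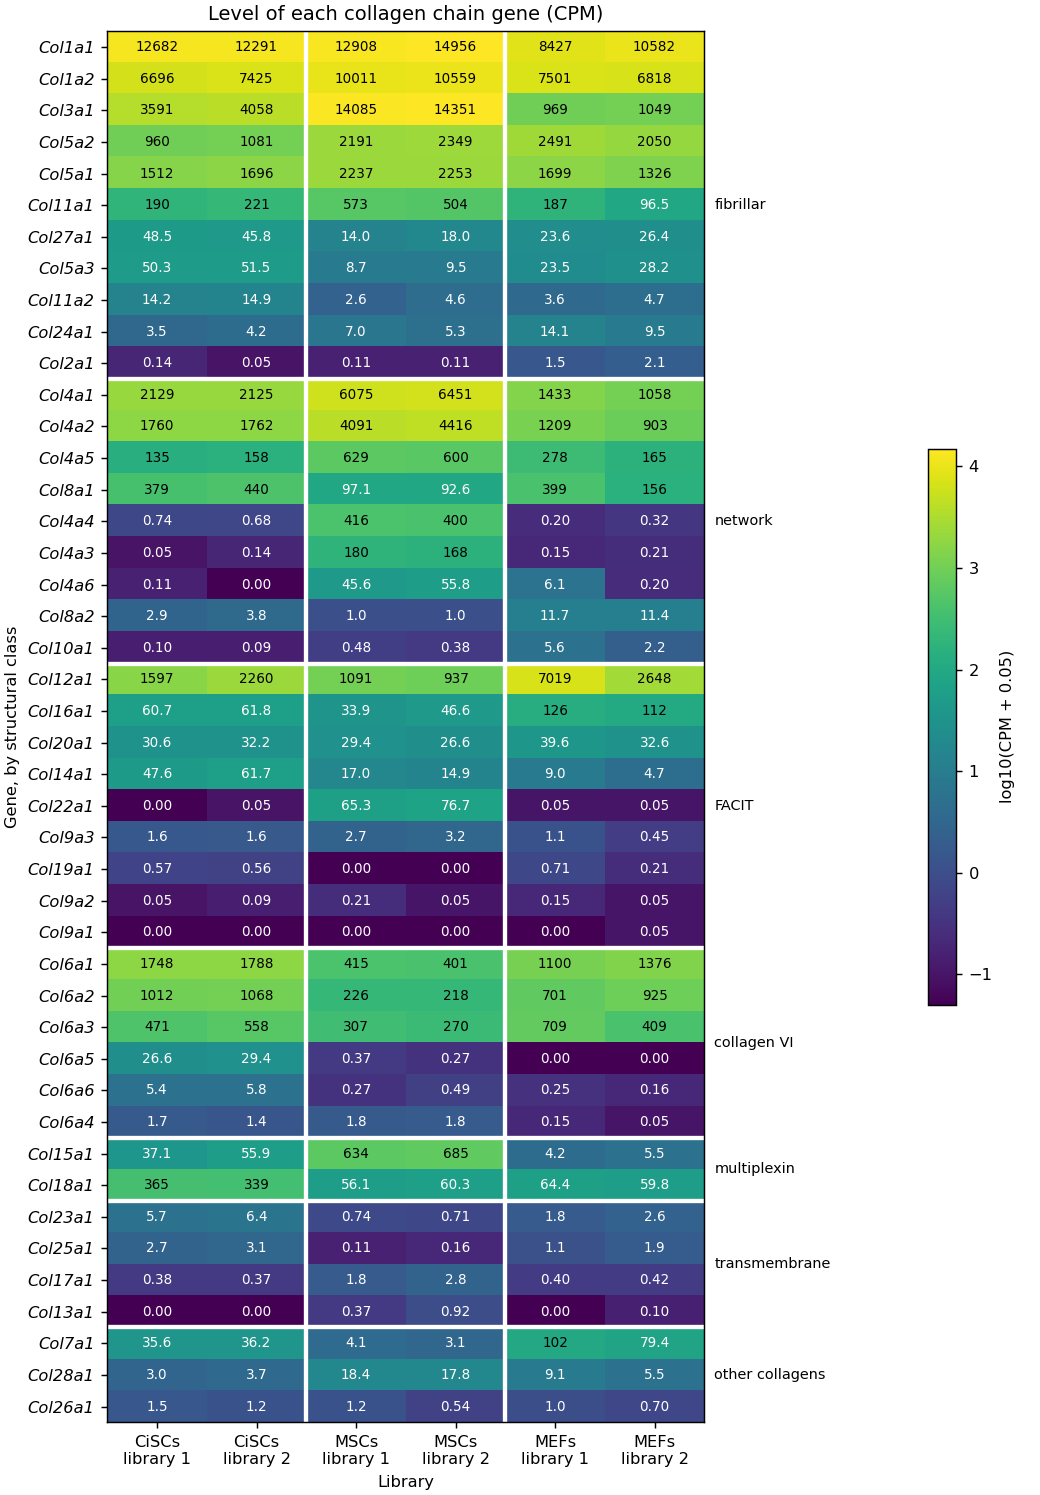
Level of each of the 44 collagen genes (rows, by structural class) in each of the 6 libraries (columns), written in CPM and coloured by log10(CPM + 0.05). The MSC columns stand out at Col4a3, Col4a4, Col4a6 and Col22a1, the CiSC columns at Col6a5 and Col6a6, and Col12a1 reads 7019 and 2648 in the MEF columns.

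Among network chains, collagen IV showed the greatest differences between groups. Col4a1 and Col4a2 encode the chains of the collagen IV found in nearly all basement membranes, and their first exons lie head to head on chromosome 8, where they overlap by 22 bases in GENCODE M21. Col4a1 had 2129 and 2125 CPM in CiSCs, 6075 and 6451 CPM in MSCs, and 1433 and 1058 CPM in MEFs. Its neighbour Col4a2 followed with 1760 and 1762 CPM in CiSCs, 4091 and 4416 CPM in MSCs, and 1209 and 903 CPM in MEFs. Both were lower in CiSCs than in MSCs, Col4a1 by -1.56 ± 0.19 (adjusted p = 0.000851) and Col4a2 by -1.27 ± 0.18 (adjusted p = 0.00185). Both were higher in MSCs than in MEFs, Col4a1 by 2.33 ± 0.19 and Col4a2 by 2.01 ± 0.19 (adjusted p = 0.000207 and 0.000321). In CiSCs they were also higher than in MEFs, Col4a1 by 0.77 ± 0.18 (adjusted p = 0.0170) and Col4a2 by 0.74 ± 0.18 (adjusted p = 0.0184). These 2 rises were lost without any one CiSC or MSC library, and that of Col4a2 also in the fit of only the 2 groups. Over the alternatives the log2 fold change was 0.57 to 0.98 for Col4a1 and 0.54 to 0.94 for Col4a2. The count ratio of Col4a1 to Col4a2 was 1.21 in both CiSC libraries, 1.48 and 1.46 in MSCs, and 1.18 and 1.17 in MEFs.

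The remaining collagen IV chains were found at high level in MSCs alone among the 3 groups, apart from Col4a5. Col4a3, Col4a4 and Col4a5 encode the collagen IV of kidney glomerular and some other specialised basement membranes, and Col4a5 also pairs with Col4a6. Col4a4 had 0.738 and 0.676 CPM in CiSCs, 416 and 400 CPM in MSCs, and 0.203 and 0.316 CPM in MEFs. Col4a3 had 0.0477 and 0.140 CPM in CiSCs, 180 and 168 CPM in MSCs, and 0.152 and 0.208 CPM in MEFs. CiSCs were lower than MSCs by -9.21 ± 0.20 for Col4a4 and -10.75 ± 0.29 for Col4a3 (adjusted p = 7.64e-06 for both), and MSCs were higher than MEFs by 10.60 ± 0.22 for Col4a4 and 9.87 ± 0.27 for Col4a3 (adjusted p = 8.56e-06 and 1.03e-05). CiSCs stayed near the MEF level, with 4 reads of Col4a3 in CiSCs, against 6483 in MSCs and 7 in MEFs. The Col4a4 excess of CiSCs over MEFs rested on 30 reads in CiSCs and 10 in MEFs (1.40 ± 0.31, adjusted p = 0.0150). It was lost without either CiSC library or the first MEF library, and in the fit of only the 2 groups (log2 fold change 1.09 to 1.73 over the alternatives). The 2 genes start head to head, and the whole stretch between their first exons is shown because both genes moved together in MSCs (RefSeq, GRCm38.p6, minus strand, reading towards Col4a4, chr1:82586850-82586975, 5′ to 3′). It is all in lower case because none of the same 3 motifs occurred on either strand.
Col4a4: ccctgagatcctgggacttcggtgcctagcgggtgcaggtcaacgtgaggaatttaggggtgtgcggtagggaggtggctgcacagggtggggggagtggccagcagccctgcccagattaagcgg
The stretch is 126 bases long. The absence of these letters says nothing of the factors that bind there.

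Col4a6 and Col4a5 also start head to head, 1308 bases apart on the X chromosome. Col4a6 had 0.106 and 0 CPM in CiSCs, 45.6 and 55.8 CPM in MSCs, and 6.13 and 0.201 CPM in MEFs. The CiSC to MSC count ratio was 0.000932 (exact binomial 95% interval 0.000113 to 0.00337, counting error only), from 2 reads in CiSCs and 1887 in MSCs, and this difference passed (adjusted p = 0.00293). Against MEFs the ratio was 0.0147 (0.00177 to 0.0544), with nearly all of the 125 MEF reads in 1 library. That Col4a6 call (adjusted p = 0.0462) was lost without the first MEF library, where the log2 fold change was -2.03 in place of -5.89. It was also lost without any CiSC or MSC library, with no filter on low counts and with the replicate block. MSCs were higher than MEFs by 3.99 ± 0.96 (adjusted p = 0.0166), a Col4a6 call lost with DESeq2 and without either MSC library (adjusted p 3.92e-06 to 0.0921). Col4a5 had 135 and 158 CPM in CiSCs, 629 and 600 CPM in MSCs, and 278 and 165 CPM in MEFs. Unlike its neighbour, Col4a5 was well detected in all 3 groups. It was lower in CiSCs than in MSCs (-2.07 ± 0.26, adjusted p = 0.000988) and higher in MSCs than in MEFs (1.47 ± 0.25, adjusted p = 0.00436). For CiSCs over MEFs the Col4a5 log2 fold change was -0.59 (adjusted p = 0.103), and it passed only without the second MEF library (adjusted p 0.000512 to 0.336).

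Collagen VIII and X are short network chains, of vessel walls and the cornea and of hypertrophic cartilage. They did not follow collagen IV. Col8a1 had 379 and 440 CPM in CiSCs, 97.1 and 92.6 CPM in MSCs, and 399 and 156 CPM in MEFs. The second MEF library stood well below the first, and CiSCs lay within or above their range (0.56 for CiSCs over MEFs, adjusted p = 0.292, passing only without the first MEF library, with a range of 8.95e-05 to 0.823). Col8a1 was higher in CiSCs than in MSCs (2.11 ± 0.41, adjusted p = 0.00675) and lower in MSCs than in MEFs (-1.55 ± 0.40, adjusted p = 0.0221). Both of these Col8a1 calls were lost without either MSC library (adjusted p 8.82e-08 to 0.0630 for CiSCs over MSCs and 5.94e-06 to 0.131 for MSCs over MEFs). Its partner Col8a2 had 2.86 and 3.83 CPM in CiSCs, 1.01 and 1.03 CPM in MSCs, and 11.7 and 11.4 CPM in MEFs, and all 3 comparisons passed (-1.78 ± 0.22 for CiSCs over MEFs, 1.71 ± 0.26 for CiSCs over MSCs and -3.49 ± 0.26 for MSCs over MEFs, adjusted p = 0.00127, 0.00235 and 0.000128). Col10a1 was listed at or below 0.478 CPM in CiSCs and MSCs, against 5.61 and 2.18 CPM in MEFs, and was lower than in MEFs in CiSCs (adjusted p = 0.00147) and in MSCs (adjusted p = 0.00514). The Col10a1 call in MSCs missed the threshold without the second MSC library (adjusted p 0.000231 to 0.0550). Of the 9 network chains, 3 were higher and 3 lower in CiSCs than in MEFs, 2 higher and 6 lower in CiSCs than in MSCs, and 6 higher and 3 lower in MSCs than in MEFs. In that order, 66.7%, 88.9% and 100% of network chains were called, beside 40.9%, 42.8% and 42.5% of all genes.

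Of the 6 collagen VI chains, 4 were higher in CiSCs than in MEFs (all genes: 19.6%) and 5 were higher in CiSCs than in MSCs (all genes: 17.7%). Col6a1, Col6a2 and Col6a3 encode the chains of the common collagen VI filament. Col6a1 had 1748 and 1788 CPM in CiSCs, 415 and 401 CPM in MSCs, and 1100 and 1376 CPM in MEFs. Col6a2 had 1012 and 1068 CPM in CiSCs, 226 and 218 CPM in MSCs, and 701 and 925 CPM in MEFs. Both were lower in MSCs than elsewhere. CiSCs exceeded MSCs by 2.12 ± 0.16 for Col6a1 (adjusted p = 0.000124) and 2.23 ± 0.17 for Col6a2 (adjusted p = 0.000135), and MSCs were lower than MEFs by -1.60 ± 0.16 for Col6a1 (adjusted p = 0.000428) and -1.87 ± 0.17 for Col6a2 (adjusted p = 0.000312). Against MEFs, CiSCs were higher for Col6a1 (0.51 ± 0.16, adjusted p = 0.0390), while Col6a2 did not pass (0.36, adjusted p = 0.135). The Col6a1 call was lost without any one CiSC or MSC library, with the replicate block and in the fit of only the 2 groups (log2 fold change 0.34 to 0.68 over the alternatives). Col6a2 passed only without the second MEF library (0.14 to 0.57 over the alternatives). Col6a3 had 471 and 558 CPM in CiSCs, 307 and 270 CPM in MSCs, and 709 and 409 CPM in MEFs. CiSCs lay within the MEF range of Col6a3 (-0.12, adjusted p = 0.747). CiSCs were higher than MSCs (0.83 ± 0.27, adjusted p = 0.0444) and MSCs were lower than MEFs (-0.95 ± 0.27, adjusted p = 0.0290). Both Col6a3 calls were lost without any one CiSC or MSC library, and the one for CiSCs over MSCs also with no filter on low counts. Over the alternatives the log2 fold change was 0.70 to 0.97 for CiSCs over MSCs and -1.30 to -0.53 for MSCs over MEFs. For CiSCs over MEFs, Col6a3 passed only without the second MEF library (-0.46), with the other sign without the first (0.31). The ratio of Col6a1 to Col6a2 counts stayed between 1.49 and 1.84 in all 6 libraries, whereas that of Col6a3 to Col6a1 was 0.269 and 0.312 in CiSCs, 0.740 and 0.674 in MSCs, and 0.644 and 0.297 in MEFs.

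**Figure D4:**
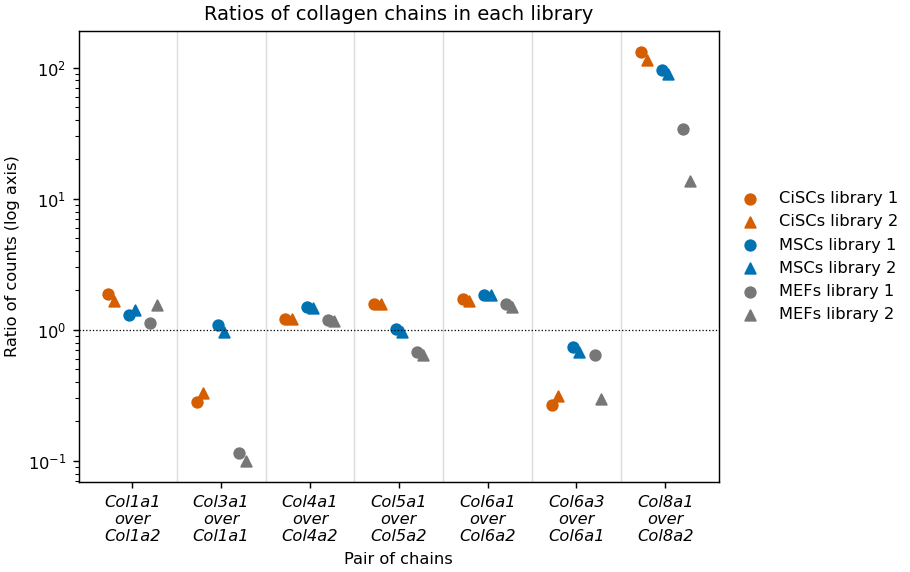
Count ratios of collagen chain pairs (vertical log axis) in each of the 6 libraries, with circles for library 1 and triangles for library 2 of CiSCs, MSCs and MEFs. Col6a1 over Col6a2 lies between 1.49 and 1.84 throughout, while Col3a1 over Col1a1 separates MSCs at 1.09 and 0.960 from CiSCs at 0.283 and 0.3301 and MEFs at 0.115 and 0.0991.

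Col6a4, Col6a5 and Col6a6 encode chains that resemble the Col6a3 chain and can take its place in the filament, and the 3 genes lie side by side on mouse chromosome 9. Col6a5 had 26.6 and 29.4 CPM in CiSCs, 0.372 and 0.271 CPM in MSCs, and 0 and 0 CPM in MEFs. It was therefore at least 364-fold higher in CiSCs than in MEFs, taking the limit of 3 reads over the MEF group (adjusted p = 3.21e-05). Against MSCs it was higher by 6.41 ± 0.27 on the log2 scale (adjusted p = 4.13e-05). Col6a6 had 5.40 and 5.78 CPM in CiSCs, 0.266 and 0.489 CPM in MSCs, and 0.253 and 0.156 CPM in MEFs. Col6a6 rose in CiSCs by 4.73 ± 0.42 over MEFs (adjusted p = 0.000282) and by 3.87 ± 0.39 over MSCs (adjusted p = 0.000385). Col6a4 had 1.72 and 1.40 CPM in CiSCs, 1.75 and 1.85 CPM in MSCs, and 0.152 and 0.0520 CPM in MEFs. Its difference between CiSCs and MSCs did not pass (-0.21 ± 0.37, adjusted p = 0.695), and it was above MEFs in both, by 3.85 ± 0.52 in CiSCs (adjusted p = 0.00179) and 4.05 ± 0.52 in MSCs (adjusted p = 0.00132). MSCs held 12 reads of Col6a5, at least 4.19-fold more than MEFs (adjusted p = 0.00489). Per kilobase even Col6a5 was low in CiSCs, at 3.01 CPM per kb beside 50.9 CPM per kb for Col6a3. Over the 6 collagen VI chains, 4 were higher in CiSCs than in MEFs and the other 2 did not pass, 5 were higher in CiSCs than in MSCs and the other 1 did not pass, and 2 were higher and 3 lower in MSCs than in MEFs. In that order, 66.7%, 83.3% and 83.3% of these chains were called, beside 40.9%, 42.8% and 42.5% of all genes. The median log2 fold change was 2.18 for CiSCs over MEFs, 2.17 for CiSCs over MSCs and -0.05 for MSCs over MEFs, and setting Col6a5 to its bound left these medians as they were.

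The promoters of these 3 genes are shown because the genes are neighbours and all 3 were higher in CiSCs than in MEFs. Each stretch lies in no exon of a protein-coding transcript and is written 5′ to 3′ on the minus strand of GRCm38.p6 (RefSeq), and the capitals mark CCAAT or GGGCGG on either strand. The positions are chr9:105960644-105960893 for Col6a5, chr9:105828161-105828335 for Col6a6 and chr9:106096784-106096941 for Col6a4.
Col6a5: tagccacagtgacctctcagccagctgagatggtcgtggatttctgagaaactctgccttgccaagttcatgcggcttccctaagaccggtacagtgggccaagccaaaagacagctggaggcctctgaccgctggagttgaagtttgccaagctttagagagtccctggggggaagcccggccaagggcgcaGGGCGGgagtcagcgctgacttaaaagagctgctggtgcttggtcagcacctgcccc
Col6a6: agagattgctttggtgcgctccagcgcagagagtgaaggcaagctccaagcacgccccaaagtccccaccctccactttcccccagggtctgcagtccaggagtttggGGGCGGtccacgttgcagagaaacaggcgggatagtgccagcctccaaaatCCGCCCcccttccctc
Col6a4: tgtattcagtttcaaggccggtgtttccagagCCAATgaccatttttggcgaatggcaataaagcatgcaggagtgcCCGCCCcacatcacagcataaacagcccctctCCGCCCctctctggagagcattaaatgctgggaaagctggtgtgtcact
GGGCGG occurred once in the Col6a5 stretch and at 2 places in each of the others, and CCAAT once in that of Col6a4. In whole windows of 300 bases, GGGCGG occurred in 35.7% of all 32851 RefSeq promoters and in 23 of 38 windows of collagen genes (60.5%). CCAAT occurred in 37.4% of all promoters and in 13 of the 38 (34.2%). Of the 44 collagen genes, 35 had a promoter in the table.

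The FACIT chains had less in common. Col12a1, whose product bridges collagen I fibrils under tension, had 1597 and 2260 CPM in CiSCs, 1091 and 937 CPM in MSCs, and 7019 and 2648 CPM in MEFs. The first MEF library stood far above the second, and in it Col12a1 made up 20.3% of all collagen counts, against 8.84% in the second. Col12a1 was lower in MSCs than in MEFs (-2.25 ± 0.46, adjusted p = 0.00852), a call lost without either MSC library (adjusted p 8.35e-08 to 0.0782). For CiSCs over MEFs it did not pass (-1.33 ± 0.44, adjusted p = 0.0532). It passed in DESeq2 and without the second MEF library, while without the first MEF library the log2 fold change was -0.48 (adjusted p 0.000167 to 0.224 over the alternatives). Col14a1, a related fibril-surface chain of dense connective tissue, was highest in CiSCs, with 47.6 and 61.7 CPM in CiSCs, 17.0 and 14.9 CPM in MSCs, and 9.0 and 4.68 CPM in MEFs. Col14a1 rose by 2.997 ± 0.32 over MEFs (adjusted p = 0.000605) and by 1.78 ± 0.30 over MSCs (adjusted p = 0.00368). MSCs were above MEFs by 1.22 ± 0.31 (adjusted p = 0.0204), which was lost without either MSC library (adjusted p 0.000545 to 0.118).

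Col22a1, a FACIT chain known from junctions of muscle and tendon, was an MSC gene in these libraries. It had 0 and 0.0468 CPM in CiSCs, 65.3 and 76.7 CPM in MSCs, and 0.0506 and 0.0520 CPM in MEFs. With 1 read in CiSCs, 2641 in MSCs and 2 in MEFs, the count ratio of Col22a1 was 0.000333 for CiSCs to MSCs (95% interval 8.42e-06 to 0.00186) and 1384 for MSCs to MEFs (383 to 11434), and both differences passed (adjusted p = 9.19e-06 and 1.17e-05). Col16a1 had 60.7 and 61.8 CPM in CiSCs, 33.9 and 46.6 CPM in MSCs, and 126 and 112 CPM in MEFs, and it was lower in CiSCs than in MEFs (-0.96 ± 0.18, adjusted p = 0.00656), higher in CiSCs than in MSCs (0.61 ± 0.18, adjusted p = 0.0342) and lower in MSCs than in MEFs (-1.56 ± 0.18, adjusted p = 0.000849). The first 2 Col16a1 calls were lost without either CiSC library, and the one against MSCs also without the first MSC library and with the replicate block. Over the alternatives the log2 fold change was -1.04 to -0.90 for CiSCs over MEFs and 0.40 to 0.85 for CiSCs over MSCs. Col20a1 had 30.6 and 32.2 CPM in CiSCs, 29.4 and 26.6 CPM in MSCs, and 39.6 and 32.6 CPM in MEFs, and none of its comparisons passed (adjusted p = 0.311, 0.413 and 0.0891 for CiSCs over MEFs, CiSCs over MSCs and MSCs over MEFs). Without the second MEF library Col20a1 passed against MEFs (adjusted p down to 0.0409 for CiSCs and 0.00783 for MSCs, and up to 0.590 and 0.363 elsewhere). Of the cartilage collagen IX chains, Col9a1 and Col9a2 were at or near the limit. Col9a1 had 0, 0 and 1 reads and Col9a2 had 3, 5 and 4 reads in CiSCs, MSCs and MEFs, and neither was tested. Col9a3, at most 3.22 CPM in any library, was higher in MSCs than in MEFs (1.89 ± 0.43, adjusted p = 0.0138), a call lost without either MSC library (adjusted p 0.00173 to 0.0914). For CiSCs over MEFs Col9a3 passed only without the first MEF library (1.01, adjusted p = 0.113 with all libraries, range 0.0126 to 0.315). Col19a1 had 24 reads in CiSCs, 0 in MSCs and 18 in MEFs, which puts it at least 7.03-fold higher in CiSCs than in MSCs (adjusted p = 0.0165) and at least 5.72-fold lower in MSCs than in MEFs (adjusted p = 0.0229). Both Col19a1 calls were lost without any one CiSC or MSC library (adjusted p up to 0.0732 and 0.0930, and down to 0.00312 and 0.00772). Of the 7 tested FACIT chains, 1 was higher and 1 lower in CiSCs than in MEFs, 3 higher and 1 lower in CiSCs than in MSCs, and 3 higher and 3 lower in MSCs than in MEFs. The share called for CiSCs against MEFs, 28.6%, lay below the 40.9% of all genes. For the other comparisons it was 57.1% and 85.7%, beside 42.8% and 42.5% of all genes.

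The 2 multiplexins, which lie at basement membranes, marked different groups. Col18a1, whose product is cut to release endostatin, was highest in CiSCs, with 365 and 339 CPM in CiSCs, 56.1 and 60.3 CPM in MSCs, and 64.4 and 59.8 CPM in MEFs. It rose by 2.50 ± 0.13 over MEFs (adjusted p = 3.45e-05) and by 2.60 ± 0.13 over MSCs (adjusted p = 2.71e-05), and MSCs and MEFs overlapped (-0.09, adjusted p = 0.578). Col15a1 was highest in MSCs, with 37.1 and 55.9 CPM in CiSCs, 634 and 685 CPM in MSCs, and 4.20 and 5.46 CPM in MEFs. Col15a1 lay between the other groups in CiSCs, 3.27 ± 0.25 above MEFs (adjusted p = 0.000164) and -3.83 ± 0.25 against MSCs (adjusted p = 6.31e-05), and MSCs exceeded MEFs by 7.09 ± 0.29 (adjusted p = 1.76e-05). Endothelial markers (10 genes), a cell type in which collagens XV and XVIII are well known, summed to 24.1 and 28.2 CPM in CiSCs, 105 and 112 CPM in MSCs, and 192 and 117 CPM in MEFs. Of the 9 endothelial markers tested, 2 were higher and 5 lower in CiSCs than in MEFs, 2 higher and 6 lower in CiSCs than in MSCs, and 7 higher and 2 lower in MSCs than in MEFs. In that order, 77.8%, 88.9% and 100% of these markers were called, beside 40.9%, 42.8% and 42.5% of all genes. The other marker, Cldn5, was at 0 in CiSCs and MEFs and had 0.860 and 0.543 CPM in MSCs. Peritubular myoid and smooth muscle markers (8 genes) summed to 1747 and 1578 CPM in CiSCs, 4054 and 3860 CPM in MSCs, and 3787 and 3365 CPM in MEFs. The part of these markers in the 2 results was not tested.

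Among the other collagens, Col7a1 had the clearest pattern. Its product forms the anchoring fibrils that tie a basement membrane to the matrix below. Col7a1 had 35.6 and 36.2 CPM in CiSCs, 4.15 and 3.15 CPM in MSCs, and 102 and 79.4 CPM in MEFs. It was lower in CiSCs than in MEFs (-1.33 ± 0.18, adjusted p = 0.00181), higher in CiSCs than in MSCs (3.30 ± 0.21, adjusted p = 6.07e-05) and lower in MSCs than in MEFs (-4.63 ± 0.22, adjusted p = 2.60e-05). Col28a1 had 3.0 and 3.69 CPM in CiSCs, 18.4 and 17.8 CPM in MSCs, and 9.05 and 5.46 CPM in MEFs. It was lowest in CiSCs, by -2.43 ± 0.28 against MSCs (adjusted p = 0.000734) and by -1.11 ± 0.28 against MEFs (adjusted p = 0.0209). The Col28a1 call against MEFs was lost without any one CiSC or MSC library and in the fit of only the 2 groups (log2 fold change -1.43 to -0.73 over the alternatives). MSCs exceeded MEFs by 1.32 ± 0.27 (adjusted p = 0.00878), lost without either MSC library (adjusted p 0.000266 to 0.0622). Col26a1, first known from testis and ovary, was between 0.539 and 1.45 CPM and passed in no comparison. The transmembrane chains, which sit in the cell membrane, were all at or below 6.44 CPM. Of the 3 that were tested, 1 was higher in CiSCs than in MEFs, 2 were higher and 1 lower in CiSCs than in MSCs, and 1 was higher and 2 lower in MSCs than in MEFs. In that order, 33.3%, 100% and 100% of these chains were called, beside 40.9%, 42.8% and 42.5% of all genes. Col23a1 was higher in CiSCs than in MEFs (1.49 ± 0.27, adjusted p = 0.00614, lost without the second CiSC library, range 0.00194 to 0.0613) and than in MSCs (3.06 ± 0.31, adjusted p = 0.000398). Col25a1 was higher in CiSCs than in MSCs (4.37 ± 0.51, adjusted p = 0.000711), and against MEFs it passed only without the second MEF library (0.93, adjusted p = 0.0869 with all libraries, range 0.0296 to 0.351). Col17a1, a hemidesmosome chain, was lower in CiSCs than in MSCs (-2.58 ± 0.41, adjusted p = 0.00298) and higher in MSCs than in MEFs (2.46 ± 0.41, adjusted p = 0.00399). Col13a1 had 0 reads in CiSCs, 24 in MSCs and 2 in MEFs, which makes it at least 9.10-fold lower in CiSCs than in MSCs, and it was not tested.

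Genes that modify and fold collagen chains in the endoplasmic reticulum were counted next. Of 18 such genes, 7 were higher and 3 lower in CiSCs than in MEFs (55.6% called, beside 40.9% of all genes, median log2 fold change 0.32). Between CiSCs and MSCs, 4 were higher and 9 lower in CiSCs (72.2%, beside 42.8%, median -0.43). Between MSCs and MEFs, 10 were higher in MSCs and the other 8 did not pass (55.6%, beside 42.5%, median 0.77). Plod2, which hydroxylates lysines of the chain ends for cross-links, had 215 and 205 CPM in CiSCs, 1174 and 1160 CPM in MSCs, and 51.3 and 36.6 CPM in MEFs. CiSCs thus lay between the other groups for Plod2, as for Col3a1 (2.26 ± 0.19 over MEFs, adjusted p = 0.000217, and -2.48 ± 0.19 against MSCs, adjusted p = 0.000123). The prolyl 4-hydroxylase gene P4ha2 had 92.6 and 88.3 CPM in CiSCs, 422 and 427 CPM in MSCs, and 111 and 114 CPM in MEFs, with MSCs above MEFs (1.91 ± 0.12, adjusted p = 6.96e-05) and CiSCs below MSCs (-2.23 ± 0.12, adjusted p = 3.44e-05). Both CiSC libraries lay below both MEF libraries, but the difference did not pass (-0.32 ± 0.12, adjusted p = 0.0695). Its relative P4ha3 was lowest in CiSCs, at 8.62 and 8.77 CPM in CiSCs, 45.2 and 42.5 CPM in MSCs, and 49.9 and 58.9 CPM in MEFs (-2.65 ± 0.15 for CiSCs over MEFs, adjusted p = 4.51e-05). P4ha1 was higher in MSCs than in MEFs by 1.30 ± 0.14 (adjusted p = 0.000689). Colgalt2, a galactosyltransferase of hydroxylysine, reached 4.39 and 4.49 CPM in CiSCs, against 0.535 and 0.597 CPM in MSCs and 0.0844 and 0.0520 CPM in MEFs (5.74 ± 0.43 for CiSCs over MEFs, adjusted p = 0.000146).

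The genes of procollagen processing and cross-linking changed in both directions. Of 13, 5 were higher and 4 lower in CiSCs than in MEFs (69.2% called, beside 40.9% of all genes, median log2 fold change 0.52). Between CiSCs and MSCs, 4 were higher and 4 lower in CiSCs (61.5%, beside 42.8%, median -0.18), and between MSCs and MEFs, 8 were higher and 2 lower in MSCs (76.9%, beside 42.5%, median 0.84). The proteases that remove the amino-terminal propeptide of fibrillar procollagens differed by gene. Adamts14 had 275 and 277 CPM in CiSCs, 18.2 and 23.4 CPM in MSCs, and 7.21 and 9.84 CPM in MEFs, and it rose in CiSCs by 5.02 ± 0.22 over MEFs (adjusted p = 2.12e-05) and 3.73 ± 0.21 over MSCs (adjusted p = 3.86e-05). Adamts2 had 42.4 and 45.7 CPM in CiSCs, 1021 and 1087 CPM in MSCs, and 74.1 and 86.7 CPM in MEFs, lower in CiSCs than in MSCs by -4.58 ± 0.16 (adjusted p = 1.05e-05) and than in MEFs by -0.87 ± 0.14 (adjusted p = 0.00368). CiSCs and MSCs thus each had 1 of these 2 genes at high level, and not the same one. Adamts3, a related protease of the list, had 3.66 and 3.05 CPM in CiSCs, 12.6 and 11.1 CPM in MSCs, and 1.28 and 1.98 CPM in MEFs. It was higher in MSCs than in MEFs (2.87 ± 0.28, adjusted p = 0.000405). In CiSCs it was lower than in MSCs (-1.82 ± 0.26, adjusted p = 0.00188) and higher than in MEFs (1.05 ± 0.29, adjusted p = 0.0269). Tll2, of the family that removes the carboxy-terminal propeptide, was at 18.9 and 18.7 CPM in CiSCs, 0.0531 and 0.326 CPM in MSCs, and 0.202 and 0 CPM in MEFs (7.43 ± 0.68 for CiSCs over MEFs, adjusted p = 0.000326). Lox, the lysyl oxidase that starts cross-links, had 409 and 416 CPM in CiSCs, 4411 and 3625 CPM in MSCs, and 1682 and 1172 CPM in MEFs, lowest in CiSCs (-3.28 ± 0.23 against MSCs, adjusted p = 8.91e-05, and -1.79 ± 0.22 against MEFs, adjusted p = 0.00107). Its relatives Loxl2 and Loxl3 differed between MSCs and MEFs in opposite directions, Loxl2 by 1.59 ± 0.15 (adjusted p = 0.000328) and Loxl3 by -1.51 ± 0.14 (adjusted p = 0.000294), and Loxl3 was also lower in CiSCs than in MEFs (-1.69 ± 0.14, adjusted p = 0.000194).

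Of 8 collagen receptor genes, 4 were higher and 1 lower in CiSCs than in MEFs (62.5% called, beside 40.9% of all genes, median log2 fold change 0.76). Between CiSCs and MSCs, 3 were higher and 2 lower in CiSCs (62.5%, beside 42.8%, median 0.36). Between MSCs and MEFs, 3 were higher and 1 lower in MSCs, and this 50% lay near the 42.5% of all genes (median -0.04). Itga11, the integrin alpha chain that binds fibrillar collagen on fibroblasts, had 104 and 103 CPM in CiSCs, 27.2 and 32.8 CPM in MSCs, and 266 and 278 CPM in MEFs. It was lower in CiSCs than in MEFs (-1.40 ± 0.14, adjusted p = 0.000427) and higher in CiSCs than in MSCs (1.78 ± 0.14, adjusted p = 0.000138). Ddr1, a receptor tyrosine kinase of epithelia that binds collagen, had 88.3 and 89.6 CPM in CiSCs, 450 and 620 CPM in MSCs, and 51.0 and 44.4 CPM in MEFs. Ddr1 was lower in CiSCs than in MSCs (-2.59 ± 0.19, adjusted p = 0.000111) and higher in MSCs than in MEFs (3.49 ± 0.20, adjusted p = 4.93e-05). Itga1, which binds collagen IV, was higher than in MEFs in CiSCs (1.44 ± 0.27, adjusted p = 0.00696) and in MSCs (2.19 ± 0.28, adjusted p = 0.00125), and Itga10 was higher in CiSCs than in MEFs (1.58 ± 0.29, adjusted p = 0.00589). Mrc2, an uptake receptor for collagen fragments, had 788 and 908 CPM in CiSCs, 219 and 231 CPM in MSCs, and 456 and 256 CPM in MEFs, higher in CiSCs than in MSCs by 1.91 ± 0.28 (adjusted p = 0.00189).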

How the data were processed

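Total RNA of 6 libraries had been sequenced with a BGISEQ-500 protocol, per the labels' protocols. The authors deposited expected counts per Entrez gene identifier, 1 file per library, and 42.0% to 43.8% of the values were not whole (tolerance 1e-09). HISAT and the mouse build mm9 are named in the submitters' processing notes, while the counting program, annotation and strand are not given in the sources used here. Of 20007 identifiers, 18891 matched a symbol in a RefSeq table of GRCm38. Reads shared with overlapping or antisense genes could not be separated.

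Expected counts were rounded to whole numbers, and edgeR 4.0.16 was run in R 4.3.3 (filterByExpr, scaling by the trimmed mean of M values (TMM), a quasi-likelihood fit with 1 mean per group over all 6 libraries and 3 residual degrees of freedom, two-sided F tests, Benjamini-Hochberg adjustment over 15272 genes, calls at an adjusted p under 0.05). Errors of fold changes are standard errors, taken as the absolute log2 fold change divided by the square root of the F statistic. For genes with few reads they need not match the p-value. Levels per kilobase used the longest protein-coding GENCODE M21 transcript of each symbol. Alternatives were median-ratio size factors, DESeq2 1.42.0, no filter, a minimum of 5 CPM in 2 or more libraries, only the 2 groups compared, the replicate number as a block, totals without collagen genes, an adjusted p under 0.01, and leaving out each library. A library left without a partner was assumed to vary like the others.

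The collagen genes, pathway lists and marker lists were chosen with earlier results of these data known. Values in every library are given for collagen genes whose mean reached 10 CPM in a group and for partner chains. Other pathway genes are the 3 with the smallest adjusted p per list and comparison, with Adamts3 added beside Adamts2 and Adamts14. In simulated data of 15272 genes, 100 genes were changed 2-fold and 100 were changed 4-fold, all with a mean over 5 CPM. The rest were left unchanged, so the results may not hold for lower genes or where many more genes change, as in these libraries. Of the 4-fold changes, 99% were recovered in each comparison. Of 2-fold changes, 51% were recovered for CiSCs against MEFs, 53% for CiSCs against MSCs and 59% for MSCs against MEFs, with 11 of 161, 13 of 165 and 18 of 176 calls false.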

Additional observations from a re-analysis of the deposited data

How the results depend on the processing

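Of the calls among collagen genes, 15 of 24 held for CiSCs against MEFs, 25 of 31 for CiSCs against MSCs and 20 of 34 for MSCs against MEFs in each setting that tested the gene, since some low genes were not tested in the fit of only the 2 groups compared or with the filter of 5 CPM. Groups of 2 libraries limit these tests, since leaving 1 out leaves a group with a single library. Leaving out single libraries gave 16 to 31 collagen genes called for CiSCs against MEFs (10 to 18 higher, 6 to 13 lower), 25 to 37 for CiSCs against MSCs (13 to 18 higher, 12 to 19 lower) and 21 to 37 for MSCs against MEFs (12 to 20 higher, 9 to 17 lower). Over all genes the counts were 3395 to 9487, 3910 to 9369 and 3516 to 9745, and the cause was not tested. At an adjusted p under 0.01, all genes called fell to 3774, 4324 and 4009, and collagen genes called to 18, 26 and 24, through the stricter threshold itself. Collagen genes higher in CiSCs were then 11 against MEFs and 14 against MSCs, with 7 and 12 lower, and in MSCs 13 were higher and 11 lower than in MEFs. Deviations of same-numbered libraries from their group means correlated over genes at -0.21 for CiSCs and MEFs, -0.13 for CiSCs and MSCs, and 0.14 for MSCs and MEFs. With 2 libraries in a group these values cannot show whether the numbers pair libraries. With the replicate block 22, 29 and 32 collagen genes and 5468, 5814 and 5672 of all genes were called. In a total without the 100 highest other genes, the collagen share was 4.67% in CiSCs, 6.63% in MSCs and 3.94% in MEFs.

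Sign changes were found only for collagen genes whose difference had not passed in that comparison, and their cause was not tested. For CiSCs over MEFs, leaving out 1 library gave -0.46 to 0.31 for Col6a3, -0.084 to 0.25 for Col5a1, -0.13 to 0.035 for Col1a2 and -0.32 to 1.39 for Col19a1. For CiSCs over MSCs it gave -1.09 to 0.39 for Col2a1. For MSCs over MEFs it gave -0.14 to 0.11 for Col5a2, -0.65 to 0.13 for Col11a2 and -0.63 to 0.47 for Col26a1. Col5a2 was 0.022 with the filter of 5 CPM, 0.00015 with the replicate block and 0.00021 without collagen genes in the totals, and Col26a1 was -0.012 with the block and -0.0050 in the fit of only the 2 groups.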

Other observations

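The genes on either side of 3 groups of neighbouring collagen genes were read after the collagen values had been seen. Around Col6a6, Col6a5 and Col6a4, the flanking genes Pik3r4 and Glyctk were not called in edgeR's test for CiSCs over MEFs. Pik3r4 had 44.3 and 49.9 CPM in CiSCs, against 43.7 and 41.9 CPM in MEFs (log2 fold change 0.14 ± 0.13, adjusted p = 0.432). Glyctk had 2.36 and 2.34 CPM in CiSCs, against 2.28 and 1.5 CPM in MEFs (0.30 ± 0.31, adjusted p = 0.471). Around Col4a4 and Col4a3, Rhbdd1 had 54.8 and 60.2 CPM in MSCs, against 54.1 and 53.1 CPM in MEFs (0.10 ± 0.13, adjusted p = 0.550). On the other side, Mff had 77.3 and 76.9 CPM in MSCs, against 70.8 and 56.4 CPM in MEFs (0.28 ± 0.15, adjusted p = 0.175).

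Col3a1 and Col5a2 are neighbours that differed, with Col3a1 higher and Col5a2 lower in CiSCs than in MEFs. The gene beside Col3a1, Gulp1, an adaptor for the engulfment of dead cells, followed the order of Col3a1. Gulp1 had 33.5 and 38.8 CPM in CiSCs, 93.7 and 80.9 CPM in MSCs, and 13.05 and 7.17 CPM in MEFs (1.84 ± 0.28 for CiSCs over MEFs, adjusted p = 0.00292, and 3.11 ± 0.29 for MSCs over MEFs, adjusted p = 0.000340). The gene beside Col5a2, Wdr75, had 52.0 and 53.2 CPM in CiSCs, 37.5 and 38.2 CPM in MSCs, and 48.4 and 33.0 CPM in MEFs, and was called neither for CiSCs over MEFs (0.37 ± 0.19, adjusted p = 0.174) nor for MSCs over MEFs (-0.10 ± 0.20, adjusted p = 0.692). Whether position has a part in these patterns was not tested.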
